A study of Mus musculus with 9 samples.

Results

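The mitochondrial respiratory chain and the ATP synthase are built largely from proteins encoded in the nucleus, and the genes for these subunits were examined in the cortex of mouse embryos. Members were taken by symbol alone, as the *Nduf* symbols with a, b, c, s or v followed by a number, *Sdha* to *Sdhd*, and the symbols that begin with *Uqcr*, with *Cox* and a number from 4 to 8, or with *Atp5*, leaving out those marked as pseudogenes. This gave 73 of the 14670 genes with deposited values, of which 33 belong to complex I, 4 to complex II, 8 to complex III, 11 to complex IV and 14 to complex V (the ATP synthase). *Ndufa4* was counted with complex IV, where its protein resides, and *Atp5s*, *Atp5sl* and *Ndufa4l2* carry such a name without being established subunits.

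The study asked how the planar cell polarity proteins Celsr3, an atypical cadherin, and Fzd3, a Frizzled receptor, act in the cortex at embryonic day 16.5 (E16.5). Total RNA was sequenced from 3 controls, 3 *Fzd3* -/- mutants and 3 *Celsr3* -/- mutants, all of one age and tissue. The labels give the controls as +/+, whereas the methods describe littermates that are heterozygous or wild type, and both lines are on a mixed C57Bl/6 and CD1 background with the *Fzd3* allele lacking exon 3. RNA was isolated with Trizol according to the labels and with an RNeasy kit according to the methods, and the methods count 3 pieces of tissue per genotype and 3 or more animals per experiment without saying whether embryos were pooled. P values measure the spread between these samples.

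Expression was deposited as CPM, the reads of a gene scaled by the size of its library. Depth, estimated from the spacing of the values in each column in a table with few low values, was 52266343, 61637621 and 39857305 reads in control libraries 1, 2 and 3. It was 42963627, 45848829 and 52249430 reads in *Fzd3* mutant libraries 1, 2 and 3, and 60333846, 54974978 and 69600589 reads in *Celsr3* mutant libraries 1, 2 and 4. The median member was covered by 2555 to 4691 reads per library and the least covered member by 64 to 166 reads. Within genotypes, the median member varied by 0.057 (s.d., log2), where counting alone would give 0.0244. The part of counting differed between members, and for *Ndufb10* it (0.0282) was above the spread (0.0243). Genes in the members' middle abundance range (38.4 to 112 CPM) varied somewhat more, with a median s.d. of 0.0688. The members themselves spanned mean levels of 1.76 to 855 CPM, so the sets were not matched in abundance.

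Complex I (NADH dehydrogenase) and complex II (succinate dehydrogenase) pass electrons to ubiquinone, complex III passes them to cytochrome c and complex IV (cytochrome c oxidase) to oxygen. Complexes I, III and IV pump protons across the inner mitochondrial membrane, and complex V uses the gradient to make ATP. Some subunits of complexes I, III, IV and V are encoded by mitochondrial DNA, whereas those of complex II are all nuclear, and neurons come to rely on this pathway as progenitors leave the cell cycle and differentiate.

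The mutated genes were compared with the labels, and only *Celsr3* passed the threshold in its own mutants. *Celsr3* mRNA was at 122, 139 and 118 CPM in *Celsr3* mutants against 196, 243 and 214 in controls (limma adjusted P = 0.0018, lower in 3 of 3 libraries). The call was lost with unmoderated variances, a setting that here and below also kept only the 6 libraries of the comparison. *Fzd3* mRNA, of which the value covers the whole gene and cannot show the loss of exon 3, overlapped, at 46.5, 39.8 and 59.6 CPM in *Fzd3* mutants and 58.0, 67.7 and 46.9 in controls (log2 fold change -0.24, limma adjusted P = 0.24). Without *Fzd3* mutant library 3 it passed the threshold, with a log2 fold change of -0.40 and a limma adjusted P of 0.0457.

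In control cortex the 73 members spanned a wide range of mRNA levels. Levels of different genes were compared as CPM per kb of annotated exon, in which the highest member was *Atp5a1*, the alpha subunit of the ATP synthase head, at a level of 229. *Cox6b1*, a complex IV subunit on the side of cytochrome c, had the highest level of its complex at 173 CPM per kb. *Uqcrh*, the hinge protein beside cytochrome c1 of complex III, reached a level of 104 CPM per kb, *Ndufc2*, an accessory subunit in the membrane arm of complex I, 82.2, and *Sdhb*, the iron-sulphur subunit of complex II, 58.05. Medians per complex were 33.4 CPM per kb for complex I, 40.3 for II, 44.8 for III, 77.7 for IV and 47.9 for V. By the longest coding transcript they were 54.26, 49.77, 77.69, 118.3 and 147, so the highest median was that of complex IV by exon length and of complex V by transcript length. Within a complex, the highest and lowest levels per kb differed 9.78-fold for complex I (lowest *Ndufb7*, at 8.40), 2.68-fold for II (*Sdhc*, 21.7), 4.98-fold for III (*Uqcrq*, 21.0), 5.48-fold for IV (*Cox6c*, 31.6) and 16.3-fold for V (*Atp5g1*, 14.1). By this length the levels were most uneven in complexes V and I, and by the longest coding transcript in complexes V (31.4-fold) and III (9.35-fold). With the longest coding transcript as the length, the highest levels per kb were those of *Ndufb9* (99.25), *Sdhb* (113.8), *Uqcrh* (236), *Ndufa4* (203) and *Atp5b* (461), so that the leading member changed in complexes I, IV and V. Among the names without an established place in a complex, *Ndufa4l2*, a paralogue of *Ndufa4* known from hypoxic cells, was lowest of the 73 at a level of 1.68 CPM per kb of exon, and *Atp5sl* was at 5.34.

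**Figure D1:**
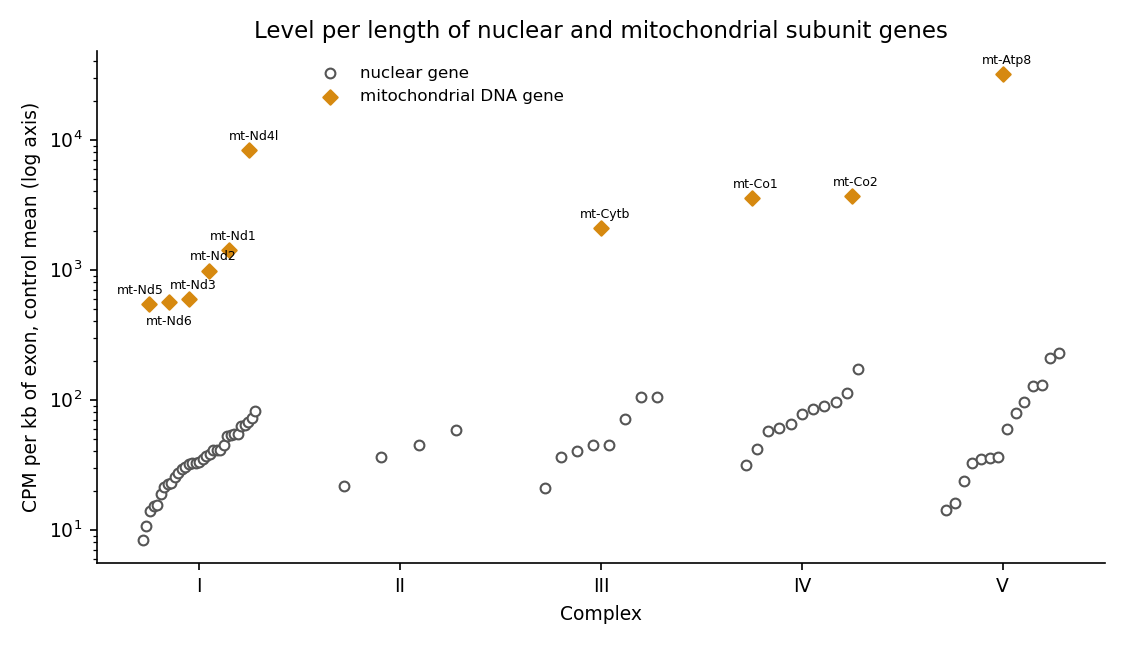
Level of each gene in control cortex on a log scale, as CPM per kb of annotated exon (mean of 3 control libraries), for the nuclear members of complexes I to V and the subunits encoded by mitochondrial DNA, with a point per gene. *Ndufb7* was lowest in complex I at 8.40 and *Atp5a1* highest in complex V at 229, whereas the mitochondrially encoded *mt-Atp8* was at 32030.

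Several members have tissue-specific paralogues. Of the pairs examined, the ubiquitous *Cox6a1*, *Cox6b1*, *Cox7a2* and *Cox8a* had values, whereas the muscle or testis forms *Cox6a2*, *Cox6b2*, *Cox7a1* and *Cox8b*, as well as *Cox4i1* and *Cox4i2*, were not in the table and were not analysed here. *Cox6a1* was at 69.3, 65.7 and 65.4 CPM in *Fzd3* mutants and 64.7, 67.5 and 70.4 in controls, a log2 difference of -0.01 (limma adjusted P = 0.858). The log2 difference between *Fzd3* mutants and controls was 0.05 for each of *Cox6b1*, *Cox7a2* and *Cox8a*, 0.09 for *Ndufa4* and -0.13 for *Ndufa4l2*, and the groups overlapped except for *Ndufa4*, at 130.04, 131 and 135 CPM in *Fzd3* mutants and 125, 117 and 128 in controls. None of these genes passed the threshold.

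The comparison of *Fzd3* mutants with controls asks which subunit mRNAs differ when Fzd3 is lost. In *Fzd3* mutants, 8 of the 73 members were lower and 3 were higher than in controls, each by a modest amount. The lower ones included *Sdha* and *Sdhb* of complex II, *Uqcrh* of complex III, *Cox7a2l* of complex IV, and *Atp5g2*, *Atp5k* and *Atp5b* of complex V. The higher ones were *Ndufc1* of complex I, *Cox5b* of complex IV and *Atp5e* of complex V. These 10 lie on chromosomes 1 (*Cox5b*), 2 (*Atp5e*), 3 (*Ndufc1*), 4 (*Sdhb*, *Uqcrh*), 5 (*Atp5k*), 10 (*Atp5b*), 13 (*Sdha*), 15 (*Atp5g2*) and 17 (*Cox7a2l*). Complex II, which hands electrons from the tricarboxylic acid cycle to ubiquinone, had both catalytic subunits lower, with a summed level of 396 ± 7.71 CPM in *Fzd3* mutants against 429 ± 2.35 in controls (s.d., n = 3). In whole tissue, fewer cells of a type and less RNA per cell cannot be told apart.

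By the limma test with Benjamini-Hochberg adjustment over the 14670 genes and a threshold of 0.05, these 11 members were 15.1% of the 73, whereas 29.8% of all genes and 32.3% of the 3496 genes in the members' middle abundance range passed. At an unadjusted P under 0.05 the count was 19. Members differed little in size as well. The log2 fold change lay within 0.1 of 0 for 50 members (68.5%), against 36.9% of all genes and 46.5% of genes of that abundance, and past 0.25 for 3 members (4.11%), against 30.1% and 18.2%. The median log2 fold change was -0.03 for the members and -0.00056 for all genes, with 46 of the 73 below 0. The count was 7 without *Fzd3* mutant library 1, 6 without *Fzd3* mutant library 2 and 7 without control library 1. It was 17 once GC content and exon length were corrected for, 6 with variances moderated without a trend and 6 with unmoderated variances. In the same order, 20.2%, 21.7%, 23.3%, 33.4%, 26.2% and 12.9% of all genes passed. The shares of members were 9.59%, 8.22%, 9.59%, 23.3%, 8.22% and 8.22%, each below that of all genes. With the columns rescaled to an equal sum, 4 members were higher and 6 lower in place of 3 and 8, and with the GC and length correction 3 were higher and 14 lower.

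**Figure D2:**
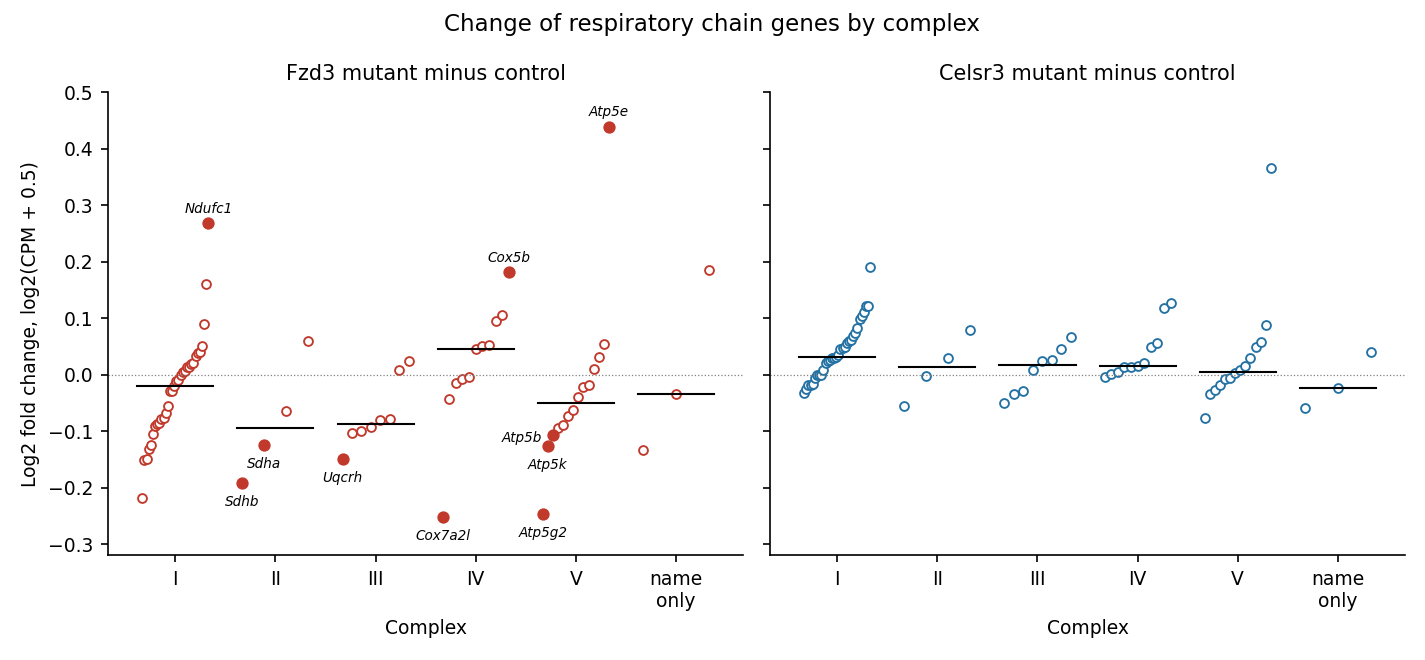
Log2 fold change of the members, with 1 of the 73 left out, *Fzd3* mutant minus control and *Celsr3* mutant minus control, grouped by complex, with a point per gene and filled points for genes past the limma threshold of 0.05. In *Fzd3* mutants the values ran from -0.25 to 0.44 with 10 genes shown past the threshold, and in *Celsr3* mutants from -0.08 to 0.37 with 0.

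In complex I, 1 of 33 members was higher and 1 lower in *Fzd3* mutants, and the median log2 fold change was -0.02. *Ndufc1*, a small accessory subunit of the membrane arm, was at 41.9, 40.5 and 38.3 CPM in *Fzd3* mutants, 35.2, 34.1 and 30.7 in controls and 36.2, 35.8 and 36.8 in *Celsr3* mutants. The *Fzd3* mutants were highest and the controls lowest, without overlap between any of the genotypes. *Ndufc1* rose by 0.27 (log2) over controls (s.e., standard error, 0.0612, limma adjusted P = 0.00755). The difference missed the threshold with unmoderated variances in the 6 libraries alone (ordinary t test in limma, adjusted P = 0.0827, with a range from 0.00506 over the alternatives).

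The rest of complex I, 31 members, did not pass the threshold in this comparison. Over all 33 members, those that passed included, the 3 core subunits at the NADH end had a median log2 fold change of -0.01 and the 4 at the quinone end of -0.08, and the 26 accessory subunits of -0.02. *Ndufs7*, a core subunit with an iron-sulphur cluster next to the quinone site, showed the smallest difference, at 33.3, 34.4 and 29.1 CPM in *Fzd3* mutants and 30.04, 33.02 and 33.6 in controls. *Ndufv3*, an accessory subunit of the NADH end, was at 41.9, 37.0 and 36.7 CPM in *Fzd3* mutants and 33.7, 34.1 and 35.3 in controls. Its groups did not overlap, yet its log2 fold change of 0.16 missed the threshold (limma adjusted P = 0.0649), which it passed without *Fzd3* mutant library 3 (limma adjusted P = 0.0482) or with rescaled columns (limma adjusted P = 0.0452). *Ndufs6*, a zinc-binding accessory subunit, was at 28.6, 29.6 and 30.1 CPM in *Fzd3* mutants and 31.0, 32.6 and 39.9 in controls. The control libraries were all higher, one of them by far, and the log2 fold change of -0.22 (limma adjusted P = 0.0733) passed without control library 1 (-0.29, limma adjusted P = 0.0363).

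In complex II, 2 of 4 members were lower and 0 higher, both in the catalytic part that holds the flavin and the iron-sulphur clusters. *Sdhb* was at 117, 114 and 110.0 CPM in *Fzd3* mutants, 126, 130.1 and 134 in controls and 126, 125 and 124 in *Celsr3* mutants. The *Fzd3* mutants lay below both other genotypes, which met at their edges. *Sdhb* fell by 0.19 on the log2 scale (s.e. 0.0403, limma adjusted P = 0.00469) and was lower in 3 of 3 libraries. *Sdha*, the flavoprotein, was at 171, 167 and 169 CPM in *Fzd3* mutants, 187, 185 and 180.4 in controls and 187, 186 and 179 in *Celsr3* mutants. Again the 3 *Fzd3* mutant libraries were lowest, while controls and *Celsr3* mutants covered the same range. *Sdha* fell by 0.13 on the log2 scale (s.e. 0.0362, limma adjusted P = 0.0232), and its limma adjusted P was 0.0756 without *Fzd3* mutant library 2, 0.0721 without control library 1, 0.0629 without control library 2 and 0.0622 with variances moderated without a trend. The membrane anchors *Sdhc* and *Sdhd* differed by -0.07 and 0.06 (log2), which did not pass. *Sdhc* was at 69.4, 67.4 and 65.4 CPM in *Fzd3* mutants and 69.9, 71.5 and 70.1 in controls, and *Sdhd* at 47.7, 44.8 and 46.2 and at 43.7, 42.9 and 46.4 CPM.

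In complex III, 1 of 8 members was lower and 0 higher, with a median log2 fold change of -0.09 and 6 members below 0. *Uqcrh* was at 117, 115 and 116 CPM in *Fzd3* mutants, 133, 122 and 132 in controls and 135, 128 and 131 in *Celsr3* mutants. The *Fzd3* mutant libraries were close to each other and below the lowest control, library 2. *Uqcrh* fell by 0.15 on the log2 scale (s.e. 0.0438, limma adjusted P = 0.0248) in 3 of 3 libraries. Its limma adjusted P rose to 0.0567 and 0.0746 without *Fzd3* mutant library 1 or 2, to 0.0874 and 0.0688 without control library 1 or 3, to 0.0598 without a variance trend and to 0.0979 with unmoderated variances. The core subunits *Uqcrc1* and *Uqcrc2* had log2 differences of -0.10 (limma adjusted P = 0.104) and -0.09 (limma adjusted P = 0.132), and the Rieske iron-sulphur protein *Uqcrfs1* of -0.08 (limma adjusted P = 0.213). *Uqcrb*, a small subunit next to cytochrome b, showed the smallest difference of complex III (0.01), at 62.6, 59.6 and 65.6 CPM in *Fzd3* mutants and 68.1, 58.5 and 60.4 in controls. *Uqcrc2* passed the threshold without control library 2 (log2 fold change -0.14, limma adjusted P = 0.0227) or after the GC and length correction (-0.14, limma adjusted P = 0.0134), which *Uqcrc1* also passed after that correction (-0.14, limma adjusted P = 0.0136).

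In complex IV, 1 of 11 members was higher and 1 lower, and the median log2 fold change was 0.05. *Cox7a2l*, whose protein joins complexes III and IV into supercomplexes, was at 97.8, 99.1 and 92.1 CPM in *Fzd3* mutants, 114, 111 and 119 in controls and 118, 112 and 119 in *Celsr3* mutants. The *Fzd3* mutants lay well below both other genotypes, which overlapped. *Cox7a2l* fell by 0.25 on the log2 scale (s.e. 0.0462, limma adjusted P = 0.00231), to 83.9% of controls, and passed in each of the 15 alternative fits and the 9 fits with a library left out. A processed copy on chromosome 12, *Gm6969*, matches *Cox7a2l* at 100% identity over its aligned bases, so reads may have been divided between them. *Gm6969* was at 17.8, 18.6 and 17.0 CPM in *Fzd3* mutants and 22.1, 21.8 and 25.6 in controls, and its log2 fold change of -0.37 (limma adjusted P = 0.00373) had the sign of its parent gene. Its share of the summed value stayed between 15.4% and 17.7% in the 9 libraries. *Cox5b*, a subunit on the matrix side, was at 75.6, 74.5 and 74.9 CPM in *Fzd3* mutants, 67.4, 66.8 and 64.1 in controls and 71.0, 74.98 and 70.8 in *Celsr3* mutants. Controls were lowest, without overlap with either mutant. *Cox5b* rose by 0.18 (log2) over controls in *Fzd3* mutants (s.e. 0.0427, limma adjusted P = 0.00888), to 113.4% of the control mean. Its partner in the complex, *Cox5a*, was at 121, 124 and 114 CPM in *Fzd3* mutants and 134, 112 and 116 in controls, the smallest difference of complex IV.

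In complex V, 1 of 14 members was higher and 3 were lower, with a median log2 fold change of -0.05. The c ring, which turns as protons pass, is encoded by *Atp5g1*, *Atp5g2* and *Atp5g3*, which give the same mature protein. *Atp5g2* was at 54.9, 48.7 and 49.1 CPM in *Fzd3* mutants, 60.4, 61.9 and 59.1 in controls and 60.1, 64.6 and 60.3 in *Celsr3* mutants. The 3 *Fzd3* mutant libraries lay below the 6 others. *Atp5g2* fell by 0.25 on the log2 scale (s.e. 0.056, limma adjusted P = 0.00722), a call lost with unmoderated variances (limma adjusted P = 0.0706, with a range from 0.00263 over the alternatives). *Atp5g1* was at 76.9, 69.1 and 66.1 CPM in *Fzd3* mutants and 63.7, 68.2 and 76.0 in controls (log2 difference 0.03). *Atp5g3* was at 180.2, 184 and 173 CPM in *Fzd3* mutants and 174, 169 and 174 in controls (log2 difference 0.05), and neither it nor *Atp5g1* passed.

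Among the other parts of the ATP synthase, *Atp5k*, subunit e at the dimer interface, was at 72.9, 70.3 and 75.2 CPM in *Fzd3* mutants and 79.2, 77.7 and 81.5 in controls. *Atp5b*, the catalytic beta subunit, was at 819, 823 and 817 CPM in *Fzd3* mutants and 879, 875 and 895 in controls. Both were lower in 3 of 3 *Fzd3* mutant libraries without overlap. *Atp5k* fell by 0.13 and *Atp5b* by 0.11 on the log2 scale, with limma adjusted P of 0.0464 and 0.0376. Both calls were close to the threshold. That of *Atp5k* was lost in 8 of 9 fits with a library left out, each except the one without *Fzd3* mutant library 3, with limma adjusted P from 0.0559 to 0.158, and its log2 fold change was -0.06 after the GC and length correction (limma adjusted P = 0.327). Rescaled columns, the 6 libraries alone, both changes to the variances and voom weights also ended it (limma adjusted P from 0.0572 to 0.0907). That of *Atp5b* was lost in 8 of 9 such fits, each except the one without *Celsr3* mutant library 1, with limma adjusted P from 0.0512 to 0.0942. Rescaled columns, the 6 libraries alone and variances without a trend also ended the *Atp5b* call, and over its alternatives the limma adjusted P ran from 0.00821 to 0.119. *Atp5a1*, the partner of *Atp5b* in the head, was at 687, 666 and 674 CPM in *Fzd3* mutants and 734, 709 and 714 in controls, and its log2 difference of -0.09 missed the threshold (limma adjusted P = 0.105), which it passed after the GC and length correction (-0.11, limma adjusted P = 0.0414). *Atp5j*, of the peripheral stalk, showed the smallest difference of complex V, at 105, 106 and 118 CPM against 109, 110.0 and 107.

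**Figure D3:**
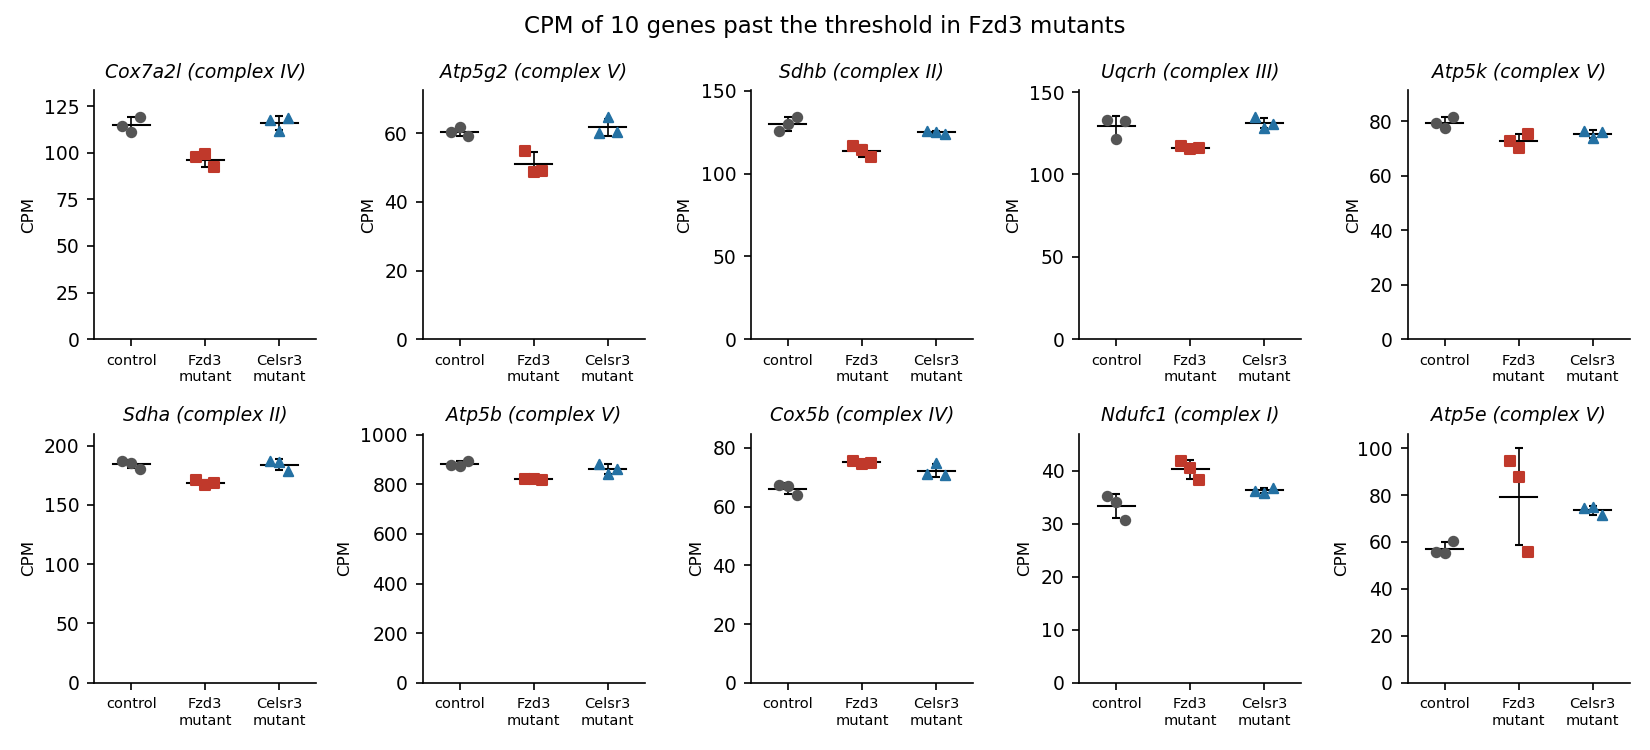
CPM in each of the 9 libraries for 10 members past the threshold between *Fzd3* mutants and controls, a panel per gene, with points for libraries, horizontal lines for group means and error bars for s.d. (n = 3). *Cox7a2l* ran from 92.1 to 99.1 in *Fzd3* mutants and from 111 to 119 in controls, whereas the groups overlapped for *Atp5e*.

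*Atp5e*, the epsilon subunit of the central stalk, had the largest log2 fold change of the 73 in *Fzd3* mutants and, of the 11 that passed, the widest spread within genotypes (s.d. 0.24, log2). It was at 94.7, 87.5 and 55.9 CPM in *Fzd3* mutants, 55.5, 55.2 and 60.4 in controls and 74.6, 74.8 and 71.3 in *Celsr3* mutants. *Fzd3* mutant library 3 lay within the controls, the other *Fzd3* mutant libraries were highest, and the *Celsr3* mutants lay between. *Atp5e* rose by 0.44 (log2) in *Fzd3* mutants (s.e. 0.148, limma adjusted P = 0.045), with 2 of 3 libraries above the controls. Without *Fzd3* mutant library 3 the log2 fold change was 0.67 (limma adjusted P = 4.34e-05). It was 0.29 without *Fzd3* mutant library 1 and 0.35 without library 2, and the call was lost in each of the 8 fits that left out a library other than *Fzd3* mutant library 3 (limma adjusted P from 0.0543 to 0.177). It was also lost with only the 6 libraries of the comparison, with variances moderated without a trend or unmoderated, and with voom weights, and over the alternatives the adjusted P reached 0.276 by limma. In *Celsr3* mutants the 3 libraries were above the 3 controls, with a log2 difference of 0.37 that missed the threshold (limma adjusted P = 0.856) and passed without *Fzd3* mutant library 3 (limma adjusted P = 0.0125) or with only the 6 libraries of that comparison (limma adjusted P = 0.0253).

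*Ndufs5*, an accessory subunit of complex I on the side of the intermembrane space, had a wider spread within genotypes (s.d. 0.284, log2), and only the weakly expressed *Ndufa4l2* exceeded it (0.289). It was at 29.7, 31.96 and 46.4 CPM in *Fzd3* mutants, 48.8, 33.6 and 33.1 in *Celsr3* mutants and 43.8, 35.0 and 37.4 in controls. In each genotype a single library stood above the others, namely *Fzd3* mutant library 3, *Celsr3* mutant library 1 and control library 1, and the genotypes overlapped (log2 fold change -0.12 in *Fzd3* mutants, limma adjusted P = 0.634). A processed pseudogene of *Ndufs5*, *BC002163* on chromosome 16, was at 10.96, 9.96 and 2.58 CPM in *Fzd3* mutants, 2.29, 11.3 and 11.1 in *Celsr3* mutants and 2.62, 9.56 and 12.4 in controls. It was lowest in the same 3 libraries in which *Ndufs5* was highest within its genotype. Its share of the pair's sum was 5.26% in *Fzd3* mutant library 3, 4.48% in *Celsr3* mutant library 1 and 5.645% in control library 1, and 27.0%, 23.75%, 25.2%, 25.2%, 21.4% and 24.85% in the others, ordered as *Fzd3* 1 and 2, *Celsr3* 2 and 4 and control 2 and 3. The sums were more even, at 40.7, 41.9 and 49.0 CPM in *Fzd3* mutants, 51.1, 44.9 and 44.2 in *Celsr3* mutants and 46.4, 44.6 and 49.8 in controls. The log2 fold change of *BC002163* was -0.04 (s.e. 0.675, limma adjusted P = 0.969). The source of the split in these 3 libraries was not tested.

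**Figure D4:**
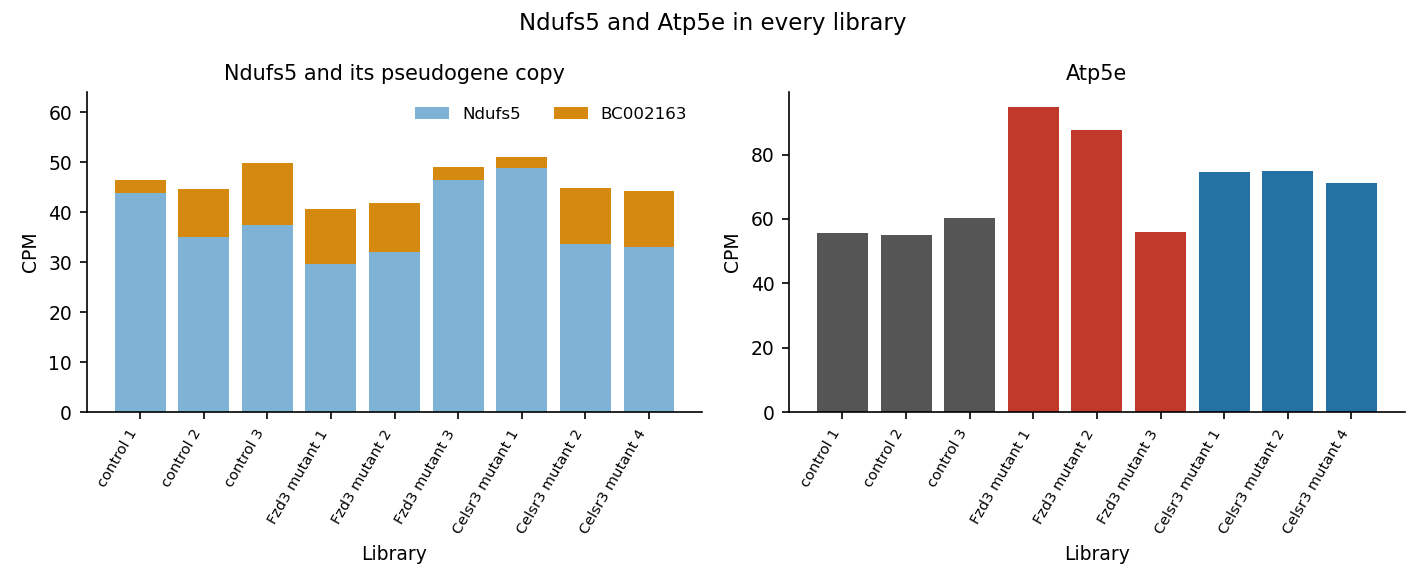
CPM in each library of *Ndufs5* stacked with its pseudogene copy *BC002163* (left) and of *Atp5e* (right), with a bar per library. *BC002163* was at 2.29 to 2.62 in the 3 libraries with the tallest *Ndufs5* bars, and *Atp5e* was at 55.9 in *Fzd3* mutant library 3 against 94.7 and 87.5 in the others of that genotype.

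The sequences of *Ndufs5* and *BC002163* show how little separates their reads. Over the 319 aligned bases, positions 248 to 566 of the 680 bases of the *Ndufs5* transcript, identity was 99.4% with 2 substitutions and 0 gaps. The substitutions are T328C and A352G, the base of *Ndufs5* first and that of *BC002163* last, with positions counted from 1 at the 5' end of the *Ndufs5* transcript. The 29 bases around each are given 5' to 3' from transcripts of GENCODE M21 (GRCm38), with the differing base in capitals.
Ndufs5 around T328C: gcagaacagccctaTaagaacgccgctcg
BC002163 around T328C: gcagaacagccctaCaagaacgccgctcg
Ndufs5 around A352G: gctcggtgccacgcAtttgaaaaagagtg
BC002163 around A352G: gctcggtgccacgcGtttgaaaaagagtg

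Copies of this kind exist for other members. Of the 73, 19 had at least 1 annotated pseudogene copy with 95% identity or more over at least 150 bases, and 54 had none. There were 33 copies in all, up to 8 for *Atp5l*, subunit g of the ATP synthase, and 9 copies of 8 members had values of their own. *Gm15920*, a copy of the complex I accessory gene *Ndufa12*, was at 4.79, 4.28 and 6.76 CPM in *Fzd3* mutants, 7.16, 7.93 and 6.93 in *Celsr3* mutants and 7.36, 7.05 and 8.35 in controls. The *Fzd3* mutants were lowest, with a log2 fold change from controls of -0.51 (limma adjusted P = 0.0234). That call was lost without *Fzd3* mutant library 1 or 2 or control library 1 or 3 (limma adjusted P from 0.0527 to 0.0931). *Ndufa12* itself was at 48.5, 48.2 and 42.8 CPM in *Fzd3* mutants and 49.7, 50.7 and 54.4 in controls, and its log2 difference of -0.15 missed the threshold (limma adjusted P = 0.127). Summed with its copy it passed (limma adjusted P = 0.0379), which made 12 members in place of 11.

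The summed CPM of each complex gives a single value per library, in which abundant genes weigh most. For complex II, the sums were 405, 393 and 390.2 CPM in *Fzd3* mutants, 426, 430 and 431 in controls and 440, 428 and 419 in *Celsr3* mutants. Complex III gave 717, 712 and 706 CPM in *Fzd3* mutants, 770, 737 and 769 in controls and 765, 748 and 758 in *Celsr3* mutants. In both complexes the *Fzd3* mutants lay below the 6 other libraries, at 92.3% and 93.8% of the control mean. Complex V gave 2953, 2914 and 2876 CPM in *Fzd3* mutants, 3027, 2999 and 3064 in controls and 3102, 2996 and 3026 in *Celsr3* mutants, with *Fzd3* mutants again lowest at 96.2% of controls. Complex I sums were 1792, 1789 and 1782 CPM in *Fzd3* mutants, 1821, 1819 and 1858 in controls and 1915, 1863 and 1856 in *Celsr3* mutants. The *Fzd3* mutants were below controls (97.5%) by a gap that closed when columns were rescaled without mitochondrially encoded genes, where they lay between 1834 and 1851 and controls between 1840 and 1904. Complex IV differed from the rest, since *Fzd3* mutants (1047, 1049 and 1035 CPM) overlapped controls (1042, 1004 and 1056) and their mean was 101% of controls. Means were 1787 ± 4.93 CPM for complex I, 712 ± 5.55 for III, 1044 ± 7.74 for IV and 2914 ± 38.7 for V in *Fzd3* mutants, against 1833 ± 22.2, 759 ± 18.6, 1034 ± 26.8 and 3030 ± 32.6 in controls (s.d., n = 3). No P value was computed for these sums.

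**Figure D5:**
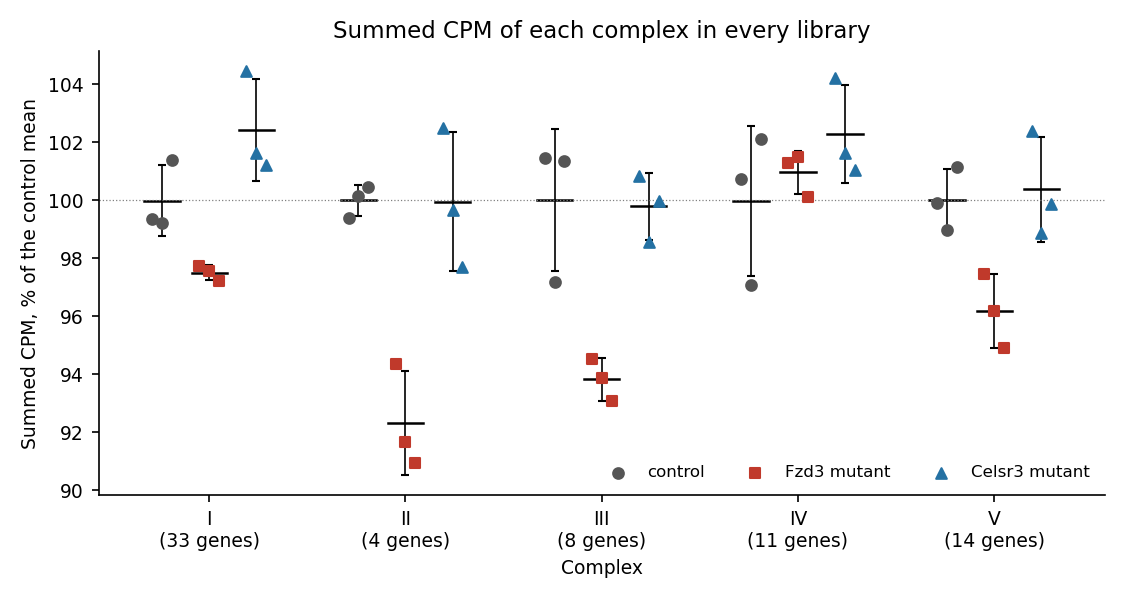
Summed CPM of the members of each complex in every library, as a percentage of the control mean, with points for libraries, horizontal lines for group means and error bars for s.d. (n = 3). The *Fzd3* mutants were below the controls for complexes I, II, III and V, at 97.5%, 92.3%, 93.8% and 96.2%, and overlapped them for complex IV.

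The subunits encoded by mitochondrial DNA belong to the same complexes, and 10 of the 13 had values, since *mt-Nd4*, *mt-Co3* and *mt-Atp6* were not in the table and were not analysed here. Per kb, their levels in controls ran from 542.5 CPM for *mt-Nd5* and 565 for *mt-Nd6* to 32030 for *mt-Atp8*, above the highest nuclear member. *mt-Atp8* overlaps *mt-Atp6* and *mt-Nd4l* (8341) overlaps *mt-Nd4*, both without values, so reads of these may be counted in them and the level of each may be too high. Of the 10, 1 rose and 2 fell in *Fzd3* mutants (30%, against 29.8% of all genes), all of complex I, and the median log2 fold change was 0.02. *mt-Nd3* was at 244, 245 and 267 CPM in *Fzd3* mutants and 225, 199.8 and 195 in controls (log2 fold change 0.29, limma adjusted P = 0.0091). *mt-Nd5* was at 781, 830 and 866 CPM against 973, 983 and 1013 (-0.26, limma adjusted P = 0.00153). *mt-Nd6* was at 216, 242 and 245 CPM against 280.4, 296 and 303 (-0.32, limma adjusted P = 0.00118). In each of these 3 genes the mutant and control libraries did not overlap. *mt-Nd5*, on the plus strand from 11742 to 13565, and *mt-Nd6*, on the minus strand from 13552 to 14070, of the mitochondrial genome, overlap at their ends, and the use of strand in counting is not stated. With unmoderated variances the calls of *mt-Nd3* and *mt-Nd6* were lost. The remaining 7 stood between 100.6% and 104.1% of the control mean in *Fzd3* mutants. With the GC and length correction, the log2 fold changes of *mt-Nd1*, *mt-Nd2*, *mt-Co1*, *mt-Co2*, *mt-Cytb* and *mt-Nd4l* turned to -0.19, -0.15, -0.18, -0.14, -0.18 and -0.04. That of *mt-Nd5* was -0.45 and that of *mt-Nd3* 0.19. *mt-Nd1*, *mt-Co1* and *mt-Co2* then passed the threshold as lower, so with that correction the calls were not all of complex I and included complex IV.

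The comparison of *Celsr3* mutants with controls asks the same of the loss of Celsr3 and shares its 3 control libraries with the comparison of *Fzd3* mutants. Values of the 73 members were close to those of the controls, with a median log2 fold change of 0.02 (all genes -0.0022). For 65 members (89%) the log2 fold change lay within 0.1 of 0, against 71.3% of all genes and 87.3% of genes in the members' middle abundance range. The medians were 0.03 for complex I, 0.01 for II, 0.02 for III, 0.02 for IV and 0.01 for V. In this comparison 24 members were below 0 and 49 above it. Summed CPM overlapped controls for each of the 5 complexes, with means of 1878 ± 32.3 for complex I, 429 ± 10.3 for II, 757 ± 8.74 for III, 1058 ± 17.4 for IV and 3041 ± 54.7 for V (s.d., n = 3). Rescaled without mitochondrially encoded genes, complex I was between 1911 and 1945 in *Celsr3* mutants, above the controls.

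With limma, 0 of the 73 members passed the threshold in *Celsr3* mutants, where 0.307% of all genes did, and with voom weights on reads the count was also 0. At an unadjusted P under 0.05 the count was 4, which does not show that the other members did not differ. The count past the limma adjusted threshold was 1, *Atp5e*, without *Fzd3* mutant library 3 or with only the 6 libraries of the comparison. The smallest adjusted P was that of *Ndufs4*, an accessory subunit of complex I whose loss causes Leigh syndrome in humans. *Ndufs4* was at 64.9, 68.0 and 63.4 CPM in *Celsr3* mutants, 56.8, 58.3 and 56.7 in controls and 56.4, 55.1 and 51.3 in *Fzd3* mutants. The *Celsr3* mutant libraries lay above the 6 others, with a log2 difference from controls of 0.19 (limma adjusted P = 0.375). *Cox5b* differed by 0.13 (limma adjusted P = 0.709) and *Atp5e* by 0.37 (limma adjusted P = 0.856), each higher in 3 of 3 libraries. *Ndufa7*, an accessory subunit, was at 47.2, 44.2 and 44.6 CPM against 41.2, 41.4 and 42.2, without overlap (log2 difference 0.12, limma adjusted P = 0.91). *Uqcrc1* lies 83.7 kb from *Celsr3* on chromosome 9 (108936633 to 108949623, GRCm38) and was at 154, 145 and 152 CPM in *Celsr3* mutants and 142, 156 and 150 in controls, a log2 difference of 0.01.

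The mutants were also compared directly, which is the test of whether they differ from each other. In this comparison 10 members passed (13.7%, against 29.6% of all genes), and each was lower in *Fzd3* than in *Celsr3* mutants. They included *Ndufs4*, *Ndufs6*, *Ndufa13* and *Ndufc2* of complex I, *Sdha* and *Sdhb* of complex II, *Uqcrh*, *Cox7a2l* and *Atp5g2*. At an unadjusted P under 0.05 the limma count was 21. The median log2 difference was -0.06 for the members and -0.0047 for all genes, with 54 of 73 below 0. The count was 6 without *Fzd3* mutant library 1 or 2 or without *Celsr3* mutant library 1 or 4. It was 17 after the GC and length correction and 5 with variances moderated without a trend. In the same order, 20.3%, 21.6%, 26.4%, 21.4%, 33% and 26.3% of all genes passed. The share of members was 8.22% in each fit with a library left out, 23.3% with the correction and 6.85% without a trend.

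The largest of these differences were in *Atp5g2* (log2 -0.28, limma adjusted P = 0.0042), *Ndufs4* (-0.27, limma adjusted P = 0.00267), *Cox7a2l* (-0.27, limma adjusted P = 0.00178) and *Ndufa13* (-0.26, limma adjusted P = 0.00575). For these 4 genes the 3 *Fzd3* mutant libraries lay below the 3 *Celsr3* mutant libraries. With unmoderated variances *Atp5g2* missed the threshold (limma adjusted P = 0.0668). *Ndufa13*, an accessory subunit also called GRIM-19, was at 38.3, 37.4 and 34.9 CPM in *Fzd3* mutants, 43.3, 43.8 and 45.6 in *Celsr3* mutants and 40.0, 43.4 and 39.6 in controls, and 375 bases of its exons overlap *Tssk6*. The *Fzd3* mutants were lowest and the controls met the *Celsr3* mutants at 1 library. Its log2 difference between *Fzd3* mutants and controls was -0.15 (limma adjusted P = 0.0658), which passed after the GC and length correction (limma adjusted P = 0.0332, with values up to 0.222 over the alternatives). *Uqcrh* differed by -0.17 (limma adjusted P = 0.0124) and passed without each library in turn, as did these 4 genes.

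Another 4 calls between the mutants depended on single libraries. *Sdhb* (-0.14, limma adjusted P = 0.0253) was lost without *Fzd3* mutant library 2 or 3 or any *Celsr3* mutant library (limma adjusted P from 0.0573 to 0.0752). *Sdha* (-0.12, limma adjusted P = 0.0249) was lost without *Fzd3* mutant library 1 or 2 or *Celsr3* mutant library 1 or 2 (0.0503 to 0.0858 by limma). *Ndufc2* was at 56.8, 57.9 and 61.5 CPM in *Fzd3* mutants, 64.8, 62.7 and 67.6 in *Celsr3* mutants and 61.7, 62.5 and 61.7 in controls. Its difference between the mutants (-0.15, limma adjusted P = 0.0385) was lost without *Fzd3* mutant library 1 or 2, *Celsr3* mutant library 1 or 4 or control library 1 (0.0513 to 0.14 by limma). *Ndufs6*, at 34.8, 36.7 and 33.3 CPM in *Celsr3* mutants, was just past the threshold (-0.24, limma adjusted P = 0.0496) and was lost without any *Fzd3* or *Celsr3* mutant library or control library 2 (0.0531 to 0.154 by limma). Without *Fzd3* mutant library 3, *Atp5e* and *Ndufv3* passed in this comparison and were higher in *Fzd3* mutants, by 0.31 (limma adjusted P = 0.00383) and 0.19 (limma adjusted P = 0.0482).

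Promoters of the members were searched for the letters of 3 motifs bound by factors known to act on respiratory genes. Members past the threshold in *Fzd3* mutants fell in all 5 complexes, though a smaller share was called (15.1%) than of all genes (29.8%). RefSeq promoters (GRCm38.p6), 250 bases before to 50 after the start, were available for 60 of the 73 members, 66 promoters in all, and both strands were read. The NRF1 motif, GCGCA and GCGC with any base between them, was present for 16 of 60 members (26.7%) and 25.8% of their promoters, against 11.1% of the genes in the table and 4.6% of all 32851 promoters. The ETS motif CCGGAAG, read by GABPA, was present for 16 of 60 (26.7%) and 24.2% of their promoters, against 19.3% of the genes in the table and 8.9% of all promoters. The YY1 motif AAGATGGC was present for 9 of 60 (15%) and 15.2% of their promoters, against 5.06% and 2.7%, and the ETS and YY1 letters can overlap by AAG. At least 1 of the 3 was present for 35 members (58.3%), against 31.1% of the genes in the table. Of the 10 members past the threshold in *Fzd3* mutants with a promoter, 3 had the NRF1, 4 the ETS and 1 the YY1 letters (30%, 40% and 10%). Of the 50 members not past it, 13 had the NRF1, 12 the ETS and 8 the YY1 letters (26%, 24% and 16%). The difference between these sets was not tested. A match is a description of the letters, and binding was not measured.

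Stretches of 150 bases, from 120 before to 30 after the start, are given 5' to 3' on the strand of the gene for the 3 genes with the clearest decrease and the pair of genes that rose in each *Fzd3* mutant library, with motif letters in capitals. *Cox7a2l* (chr17:83514304-83514453, minus strand) and *Cox5b* (chr1:36691367-36691516, plus strand) held none of the 3 motifs there. *Atp5g2* (chr15:102671018-102671167, minus strand) held the NRF1 letters from base -42, *Sdhb* (chr4:140961151-140961300, plus strand) the ETS letters from base 6, and *Ndufc1* (chr3:51408926-51409075, minus strand) the YY1 letters from base 22. *Sdha* held the NRF1 letters 3 times, from bases -98, -55 and -10. The lower and the higher genes thus included promoters with and without these letters.
Cox7a2l: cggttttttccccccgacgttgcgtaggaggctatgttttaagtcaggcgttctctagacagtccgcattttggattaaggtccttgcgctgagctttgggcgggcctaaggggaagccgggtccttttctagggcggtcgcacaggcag
Atp5g2: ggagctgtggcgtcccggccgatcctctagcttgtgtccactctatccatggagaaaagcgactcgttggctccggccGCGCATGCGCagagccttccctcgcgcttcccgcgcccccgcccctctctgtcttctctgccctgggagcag
Sdhb: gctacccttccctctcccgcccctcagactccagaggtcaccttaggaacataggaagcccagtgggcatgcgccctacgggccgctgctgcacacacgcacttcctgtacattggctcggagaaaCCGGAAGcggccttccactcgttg
Ndufc1: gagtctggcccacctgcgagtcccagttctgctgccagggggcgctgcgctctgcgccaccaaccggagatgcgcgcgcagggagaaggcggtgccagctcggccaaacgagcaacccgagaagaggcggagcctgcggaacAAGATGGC
Cox5b: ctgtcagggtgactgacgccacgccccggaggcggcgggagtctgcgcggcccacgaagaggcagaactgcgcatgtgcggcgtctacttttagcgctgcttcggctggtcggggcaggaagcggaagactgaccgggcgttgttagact

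Genes that work with the respiratory chain were read beside the members. Of 5 other nuclear subunit genes outside the naming rule, among them *Cycs* (cytochrome c), *Cyc1* (cytochrome c1) and *Ndufab1* (the acyl carrier subunit of complex I), 0 passed with limma in *Fzd3* mutants, 0 with voom weights and 0 at an unadjusted P under 0.05. Their median log2 difference was -0.01, and 0.01 with rescaled columns. Of 42 assembly factors with values, of 52 listed, 1 rose and 1 fell (4.76%, against 29.8% of all genes). With voom weights 3 of them passed, and 7 had an unadjusted P under 0.05 with limma. *Uqcc1*, a complex III factor, was at 31.96, 39.6 and 31.8 CPM in *Fzd3* mutants and 26.8, 27.5 and 31.1 in controls, and rose by 0.27 on the log2 scale (limma adjusted P = 0.047). It passed in 2 of 9 fits with a library left out, those without *Fzd3* mutant library 3 or control library 3 (otherwise limma adjusted P from 0.0523 to 0.173). *Coa5*, a complex IV factor, fell by 0.19 (limma adjusted P = 0.0151) and missed the threshold without *Fzd3* mutant library 1 or 2 (0.057 and 0.0629 by limma).

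The tricarboxylic acid cycle supplies succinate to complex II and NADH to complex I. Of its 18 genes, 0 rose and 5 fell in *Fzd3* mutants (27.8% called, against 29.8% of all genes), with a median log2 fold change of -0.10. *Suclg2*, of the GTP-forming succinyl-CoA ligase, was at 9.34, 8.47 and 8.65 CPM in *Fzd3* mutants, 10.8, 11.9 and 13.8 in *Celsr3* mutants and 15.6, 12.7 and 13.4 in controls (log2 fold change -0.62, limma adjusted P = 0.00155). *Idh2*, the mitochondrial NADP-dependent isocitrate dehydrogenase, was at 82.7, 89.1 and 91.0 CPM in *Fzd3* mutants and 107.6, 101.5 and 107.4 in controls (-0.27, limma adjusted P = 0.00165). Both were lower in 3 of 3 libraries without overlap. Of 17 glycolysis genes with values, 3 rose and 5 fell (47.1%), with a median of 0.03. The hexokinase *Hk2* was at 9.01, 8.75 and 8.25 CPM in *Fzd3* mutants and 14.5, 14.8 and 14.1 in controls (-0.71, limma adjusted P = 0.00019), and the phosphofructokinase *Pfkp* rose by 0.84 (limma adjusted P = 0.00088), a call lost with unmoderated variances.

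Lists of mitochondrial upkeep were read in the same way, beside the 29.8% of all genes that passed. Of 19 regulators of mitochondrial biogenesis with values, 1 rose and 3 fell in *Fzd3* mutants (21.1%, median log2 -0.05). The nuclear receptor *Esrrg* rose by 0.57 (limma adjusted P = 0.0124; 0.052 and 0.0519 without *Fzd3* mutant library 1 or 2). *Gabpb2*, a partner of GABPA, fell by 0.43 on the log2 scale (limma adjusted P = 0.0174) and missed the threshold without *Fzd3* mutant library 1 or 2 or control library 1 or 2 (0.0575 to 0.0746 by limma). Of 24 genes of protein import, 0 rose and 3 fell (12.5%, median -0.04). *Tomm22*, a receptor of the outer membrane translocase, was at 50.8, 51.7 and 53.9 CPM in *Fzd3* mutants and 60.7, 65.3 and 65.6 in controls (-0.29, limma adjusted P = 0.00362). *Timm17b*, of the inner membrane translocase, fell by 0.23 (limma adjusted P = 0.0359) and was lost without any *Fzd3* mutant library, *Celsr3* mutant library 2 or control library 1 or 2 (0.0519 to 0.124 by limma).

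Of 16 genes of the outer membrane and mitochondrial dynamics, 3 rose and 2 fell in *Fzd3* mutants (31.2%, median log2 0.04). *Mfn2*, which drives fusion, rose by 0.25 (limma adjusted P = 0.0282), a call lost without any *Fzd3* mutant library or control library 2 or 3 (0.0506 to 0.101 by limma). *Apool*, of the cristae junction complex, fell by 0.28 (limma adjusted P = 0.0326), a call lost without *Fzd3* mutant library 1 or 3 or any control library (0.0574 to 0.0996 by limma). Of 3 carriers of adenine nucleotides and phosphate, 0 rose and 1 fell (median -0.09). That was *Slc25a5*, an ADP/ATP carrier, at 154, 159 and 152 CPM in *Fzd3* mutants, 195, 200.2 and 207 in *Celsr3* mutants and 199, 203 and 194 in controls (-0.36, limma adjusted P = 0.00011). The *Fzd3* mutant libraries were far below the 6 others. In *Celsr3* mutants, 0 genes of these pathway lists passed with limma or with voom weights, and at an unadjusted P under 0.05 there was 1 each among the assembly factors and the import genes.

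Mitochondrial ribosomal protein genes, which serve the mitochondrially encoded subunits, had 3 of 75 higher and 8 lower in *Fzd3* mutants (median log2 -0.07). *Mrpl17* fell by 0.40 (limma adjusted P = 0.00131), and *Mrpl14* rose by 0.31 (limma adjusted P = 0.0251; lost without *Fzd3* mutant library 2 or 3 or control library 2 or 3, at 0.0586 to 0.0793 by limma). Of 90 cytosolic ribosomal protein genes, 5 were higher and 49 lower (60% called; median -0.14), and 1 was lower in *Celsr3* mutants. The largest changes among them were increases, in *Rpl29* (302, 295 and 202 CPM in *Fzd3* mutants against 107, 107 and 101 in controls) and *Rps2* (413, 399 and 382 against 221, 181 and 200.4). Their log2 fold changes were 1.32 and 0.99. The 15.1% of respiratory chain members called thus stood near the mitochondrial ribosomal proteins (14.7%) and below the cytosolic ones, with no test of these differences between lists.

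Marker genes of cell types in the cortex were also compared between *Fzd3* mutants and controls. The share called against controls was 100% for intermediate progenitor, 72.7% for radial glia, 70% for projection neuron and 0% for interneuron markers. It was 29.8% for all genes. Of 5 intermediate progenitor markers, 5 were lower, with a summed level of 231, 252 and 287 CPM in *Fzd3* mutants, 398, 453 and 460.4 in *Celsr3* mutants and 410, 435 and 361 in controls (most abundant gene *Eomes*). Of 11 radial glia markers, 7 were lower and 1 higher, with sums of 1123, 1186 and 1069 CPM, 1318, 1346 and 1432, and 1440, 1497 and 1466 in the same order of genotypes (most abundant gene *Fabp7*). Both progenitor lists were thus lowest in the 3 *Fzd3* mutant libraries. Of 10 projection neuron markers with values, of 11 listed (*Tubb3* had none), 2 were higher and 5 lower, and the sums overlapped at 7072, 6842 and 7096 CPM in *Fzd3* mutants, 6990, 6992 and 6669 in *Celsr3* mutants and 6868, 6886 and 6633 in controls (most abundant gene *Dcx*). Of 8 interneuron markers, 0 passed between *Fzd3* mutants and controls with limma, voom weights or an unadjusted P under 0.05, and 3 were higher in *Fzd3* than in *Celsr3* mutants. Their sums were 284, 262 and 220 CPM in *Fzd3* mutants, 239, 203 and 188 in *Celsr3* mutants and 239, 237 and 270.3 in controls (most abundant gene *Dlx1*). The part of these cell types in the results for the members was not tested.

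Some markers of endothelial cells and microglia were higher in *Fzd3* mutants, 42.9% of each list against 29.8% called among all genes. Of 7 endothelial markers, 3 were higher and 0 lower, with sums of 154.5, 145 and 135 CPM in *Fzd3* mutants, 112, 97.9 and 146 in *Celsr3* mutants and 102, 104 and 107 in controls (most abundant gene *Kdr*). Of 7 microglia markers with values, of 8 listed (*Tmem119* had none), 3 were higher and 0 lower, with sums of 60.02, 56.2 and 42.25 CPM, 37.4, 41.0 and 49.0, and 34.1, 40.0 and 38.1 in that order (most abundant gene *Csf1r*). In both lists the *Fzd3* mutants were above the controls in 3 of 3 libraries. Of 6 markers of meninges and pericytes with values, of 7 listed (*Lum* had none), 0 passed with limma or voom weights between any of the genotypes and 2 had an unadjusted P under 0.05 in each mutant, with sums of 76.7, 76.75 and 63.15 CPM in *Fzd3* mutants, 67.75, 62.9 and 234 in *Celsr3* mutants and 60.1, 62.6 and 56.0 in controls (most abundant gene *Rgs5*). *Celsr3* mutant library 4 stood apart in that list. Of 8 red blood cell markers with values, of 11 listed (*Hbb-b1*, *Hbb-b2* and *Hbb-bh1* had none), 1 was lower in *Fzd3* mutants, with sums of 2288, 2445 and 1570 CPM in *Fzd3* mutants, 2418, 1585 and 2539 in *Celsr3* mutants and 1767, 1920 and 2041 in controls (most abundant gene *Hba-a1*). *Fzd3* mutant library 3 and *Celsr3* mutant library 2 were lowest in that list. None of the 4 choroid plexus markers *Ttr*, *Folr1*, *Clic6* and *Kl* had a value, and of 7 heart and skeletal muscle markers only *Myh7* had, at 3.09, 2.27 and 2.41 CPM in *Fzd3* mutants, 2.19, 1.60 and 1.42 in *Celsr3* mutants and 2.27, 2.83 and 4.47 in controls. The part of these cells in the results for the members was not tested.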

How the data were processed

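RNA of 9 libraries (3 control, 3 *Fzd3* mutant, 3 *Celsr3* mutant; E16.5 cortex) was used as the CPM values the authors deposited, for 14670 genes. The submitters' processing notes name TopHat, TopHat2, Bowtie, Cufflinks 2.1.1, edgeR 2.12, FastQC and the builds GRCm38 and GRCh37, without their roles. The number of unused columns was 0. Values below 3 reads, 0.0427 to 0.0752 CPM depending on the library, were taken as the counting floor, which covers counting error only.

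Log2(CPM + 0.5) was fitted in R 4.3.3 with limma 3.58.1 (trend, two-sided, Benjamini-Hochberg, threshold 0.05), with all libraries in a single fit. A minimum mean of 0.5 CPM removed none of the 14670 genes, so the alternative without a filter repeated the main fit. The fit was tested on simulated data. Exons, positions and pseudogenes came from GENCODE M21 (GRCm38), in which 14421 of 14670 genes matched. Copies were found with BLAST+ 2.17.0, and Python 3.11.15 with pandas 2.3.3, numpy 2.4.6, Biopython 1.88 and matplotlib 3.10.9 made the sequences and figures.

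Members, gene lists and the rule for named genes were chosen with earlier results of these data known. The rule named, per complex, the highest level per kb, the largest 2 changes past the threshold without overlap of the groups and the smallest change, then members against the main direction, paralogues, mitochondrially encoded subunits, up to 2 genes per other list, and the mutated genes. *Ndufs4*, *Ndufs5*, *Ndufs6*, *Ndufa7*, *Ndufa12*, *Ndufa13*, *Ndufv3*, *Uqcrc1*, *Uqcrc2*, *Uqcrfs1*, *Atp5b*, *Atp5sl*, *Gm6969*, *Gm15920* and *BC002163* were named after their values were seen, as were genes named for lowest levels. Alternatives changed the pseudocount, the filter, the scaling, the libraries fitted, the moderation of variances and each library in turn. Others added a replicate block or a GC and length correction. Fits with unmoderated variances used ordinary t tests on only the 6 libraries of each comparison. In the replicate block, *Celsr3* mutant library 4 had a number of its own and so added nothing to comparisons of *Celsr3* mutants. A member that the rule names is not reported here. Voom weights and sums with pseudogene copies were chosen after seeing the data.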

Additional observations from a re-analysis of the deposited data

How the results depend on the processing

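The 15 alternative fits include the one without a filter, which equals the main fit. Over these 15 and 9 fits with a library left out, 4 of the 11 members called between *Fzd3* mutants and controls passed each time. *Sdhb*, *Cox5b* and *Cox7a2l* were among them, and 0 of the 11 changed sign. Between the mutants, 2 of 10 passed each time (*Ndufs4* and *Cox7a2l*). Counts of members called between *Fzd3* mutants and controls were 7 with a replicate block, 17 with a GC and length correction, 6 without a variance trend, 6 unmoderated, and 6 to 11 with a library left out. The shares of all genes called in these fits were 24.7%, 33.4%, 26.2%, 12.9%, and 20.2% to 29.4%. Between *Celsr3* mutants and controls the count was 1 with only the 6 libraries, and 0 to 1 with a library left out, where the median log2 fold change ran from 0.0068 to 0.042. Between the mutants the counts were 4 with the block, 17 with the correction, 5 without a trend, and 6 to 11 with a library left out. The shares of all genes called in those fits were 14.3%, 33%, 26.3%, and 20.3% to 30.5%. The median log2 difference of the members between the mutants was -0.0838 with block and correction.

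Rescaled without mitochondrially encoded genes, *Fzd3* mutant sums were 98.7% of controls for complex I, 94.9% for III and 102.2% for IV, and with a library left out 97.15% to 98.2%, 92.5% to 94.5% and 99.55% to 102.1%. *Celsr3* mutant sums of complex III ran from 98.4% to 100.5%. Per kb of the longest coding transcript, *Ndufc2* was at 90.7, *Sdhb* at 113.8, *Uqcrh* at 236, *Cox6b1* at 198 and *Atp5a1* at 269 CPM.

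The log2 fold change of *Fzd3* in *Fzd3* mutants was -0.40 without *Fzd3* mutant library 3, and ran up to -0.11 without other libraries. That of *Celsr3* in *Celsr3* mutants was -0.71 with the block and -0.78 unmoderated, neither of them past the threshold. *Celsr3* mutant library 4 did not inform the value with the block. With the GC and length correction, also with the block, *mt-Nd1* was at -0.19, *mt-Co1* at -0.18 and *mt-Co2* at -0.14 in *Fzd3* mutants. These were of opposite sign to the deposited values and past the threshold. The same held with both for *mt-Nd2* at -0.15 against controls and *mt-Nd1* at -0.19 between the mutants. For these, the cause was not tested. Over the 56 genes followed, 207 results under an alternative no longer passed, 9 passed newly, 8 changed sign with a value past the threshold before or after, and 3805 kept their side of the threshold. Differences near 0 that did not pass, such as those of *Uqcrb* and *Cox5a*, also crossed 0 among the latter.

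The replicate numbers were not taken to pair libraries. Deviations from the group means of *Fzd3* mutant libraries and controls with equal numbers correlated across genes at -0.0696, -0.154 and -0.199, and for *Celsr3* mutants and controls at 0.0728 and -0.0132 for the numbers 1 and 2 that both have. Between the mutants they were 0.192 and -0.0799 for these numbers. No *Fzd3* mutant library correlated best with the control of its own number. In the block, no other library shared the number of *Celsr3* mutant library 4, which therefore added nothing to comparisons of *Celsr3* mutants. With the block, the calls of *Sdha*, *Atp5b*, *Atp5e* and *Atp5k* of *Fzd3* mutants against controls were lost. So were those of *Ndufa13*, *Ndufc2*, *Sdha*, *Sdhb* and *Uqcrh* between the mutants. With both block and correction, those of *mt-Nd3* and *Uqcrh* against controls were also lost, as was that of *Atp5g2* between the mutants. A test of whole reads with edgeR was planned and not run. In each library 100% of values were whole multiples of the estimated step of a single read. Low values were too few for the planned check of that step. The depths, reads per member and voom weights given here rest on the estimated step. Counting error bears most on the least covered member, which had 64 reads in 1 library.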
